A study of Mus musculus with 5 samples.

Results

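Promoter places are the spots near gene starts where the transcription factors IRF4 or IRF8 had a ChIP-seq peak in mouse B cells cultured with lipopolysaccharide (LPS). A promoter peak was a peak of one of the 4 LPS lists, on chromosomes 1 to 19 or X, with its centre at most 1000 bp from the transcription start site (TSS) of a protein-coding gene. Overlapping peaks of different lists were merged to 1 place. This gave 348 promoter peaks of 3722 peaks, and 267 promoter places of 2700 places. The other 2433 places served for comparison. Position alone chose the members, and 17 peaks lay 900 to 1000 bp from the TSS, just inside the limit, while 22 lay 1000 to 1100 bp away, just outside.

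The 5 groups held 1 library each: IRF4 after 72 h, IRF4 after 48 h, IRF8 after 72 h and IRF8 after 48 h of culture, and, without culture, IRF8 in B cells of the germinal centre (GC). The cultured cells were naive splenic B cells of wild-type C57BL/6 mice, activated in vitro with LPS at 10 µg/ml. The GC B cells, dividing cells that mutate their antibody genes, were sorted from wild-type mice 13 days after immunisation with the hapten-protein conjugate NP-KLH. The study set the binding of the 2 factors side by side along the paths that activated B cells can take. With 1 library a group, no difference has a replicate check, and each comparison is one of libraries and lists. The LPS libraries held 3766015, 3396941, 3065426 and 4375858 tags in the order above. The tags of the IRF8 72 h list carry a mark for replicate 2 in its header, and the sources used here do not say whether libraries were merged. No input library was analysed, and absence from a list means only that no peak passed the caller's threshold. All intervals are exact at 95% and cover counting error only.

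IRF4 and IRF8 are close relatives that recognise GAAA half-sites through the same kind of DNA-binding domain, and both bind DNA weakly alone. Together with PU.1 or SPIB, which are ETS factors, they bind the composite element EICE, with BATF and JUN proteins (AP-1) they bind the composite elements AICE, and pairs of IRF half-sites form the interferon-stimulated response element (ISRE), which lies in the promoters of many interferon-induced genes. In B cells IRF4 is known for class switching and plasma cell formation, and IRF8 for the germinal centre programme and for genes of antigen presentation and innate immunity.

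The elements were searched by their exact letters on both strands within 100 bp of each peak centre. EICE was GGAANNGAAA, ISRE was GAAANNGAAA, AP-1 was TGACTCA or TGAGTCA, AICE1 was GAAA followed at once by TGACTCA or TGAGTCA, and AICE2 was GAAANNNNTGACTCA or GAAANNNNTGAGTCA. AICE1 and AICE2 contain an AP-1 match, and EICE and ISRE overlap where half-sites follow each other. Among windows of the same width around all 45935 protein-coding TSS, 1.58% held EICE, 2.06% ISRE, 2.63% AP-1 and 0.0174% AICE1. A match is a description of letters, not evidence of a bound site.

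The following promoters show the ISRE form, chosen because it marked the IRF8 72 h promoter peaks. Sequences are from the mm9 genome, on the strand of the gene, 5′ to 3′, with the elements named for each promoter in capitals, and annotated untranslated stretches are limited to 30 bases. Irgm2, Psmb8 and Usf1 join an ETS half-site and IRF half-sites in 1 run. Oas1b, Trim21, Tapbp and Socs1 carry GAAA half-sites at regular spacing. The place of 2010002M12Rik, which also lies within 1000 bp of the TSS of Ifit1, holds a pair of ISRE matches.
Erap1, chr13:74777251-74777319, plus strand: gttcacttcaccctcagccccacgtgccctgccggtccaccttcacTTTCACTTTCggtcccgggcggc
Irgm2, chr11:58028369-58028469, plus strand: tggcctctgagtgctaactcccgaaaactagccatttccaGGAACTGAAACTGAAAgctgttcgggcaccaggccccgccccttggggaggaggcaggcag
Psmb8, chr17:34335286-34335315, plus strand: tggcTTTCGCTTTCACTTCCttgtcgcaga
Usf1, chr1:173342393-173342493, plus strand: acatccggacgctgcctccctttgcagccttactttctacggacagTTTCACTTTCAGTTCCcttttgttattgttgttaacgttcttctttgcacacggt
Oas1b, chr5:121262576-121262643, plus strand: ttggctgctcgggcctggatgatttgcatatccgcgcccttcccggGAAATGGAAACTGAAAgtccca
Trim21, chr7:109713964-109713993, minus strand: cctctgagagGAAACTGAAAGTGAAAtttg
Tapbp, chr17:34056576-34056605, plus strand: gaagGAAAATGAAAGTGAAAggggaagaaa
Socs1, chr16:10785657-10785757, minus strand: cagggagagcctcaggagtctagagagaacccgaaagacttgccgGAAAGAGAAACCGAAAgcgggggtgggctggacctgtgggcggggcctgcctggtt
Rhebl1, chr15:98711993-98712093, minus strand: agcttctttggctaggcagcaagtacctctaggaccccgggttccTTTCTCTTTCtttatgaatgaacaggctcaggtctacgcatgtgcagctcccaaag
2010002M12Rik, chr19:34715234-34715329, minus strand: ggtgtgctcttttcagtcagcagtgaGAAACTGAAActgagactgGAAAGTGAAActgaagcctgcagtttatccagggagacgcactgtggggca

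The next promoters show EICE (Cnpy3, Gpr18), AICE1 (Fam100b, Notch1) and AP-1 (Tcfeb, Tlr9), and Irf5 shows AP-1 and EICE as separate, not joined, matches. They were chosen to show these forms under IRF4 promoter peaks or at places held by several lists. EICE was not particular to IRF4, as its shares below show.
Cnpy3, chr17:46888497-46888597, minus strand: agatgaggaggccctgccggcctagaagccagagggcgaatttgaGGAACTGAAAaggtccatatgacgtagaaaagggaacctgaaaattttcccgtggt
Gpr18, chr14:122315661-122315761, minus strand: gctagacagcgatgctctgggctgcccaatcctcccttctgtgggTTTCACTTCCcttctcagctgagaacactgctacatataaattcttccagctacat
Fam100b, chr11:116295020-116295120, plus strand: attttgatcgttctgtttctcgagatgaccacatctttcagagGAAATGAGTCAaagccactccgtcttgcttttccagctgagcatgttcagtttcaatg
Notch1, chr2:26358378-26358478, minus strand: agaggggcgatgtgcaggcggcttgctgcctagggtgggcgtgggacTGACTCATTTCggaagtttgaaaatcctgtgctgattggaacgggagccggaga
Tcfeb, chr17:47905730-47905830, plus strand: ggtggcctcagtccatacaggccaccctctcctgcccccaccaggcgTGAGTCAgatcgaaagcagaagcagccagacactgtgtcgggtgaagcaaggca
Tlr9, chr9:106124824-106124924, plus strand: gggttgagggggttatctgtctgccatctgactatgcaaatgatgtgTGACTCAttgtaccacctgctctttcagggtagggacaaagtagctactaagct
Irf5, chr6:29479153-29479253, plus strand: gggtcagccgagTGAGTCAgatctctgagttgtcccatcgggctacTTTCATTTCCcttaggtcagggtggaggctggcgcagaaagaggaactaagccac

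A last promoter shows what the exact search leaves out. No element was matched within 100 bp of the peak centre at Trmt12. The printed stretch holds letters close to AICE1, with an IRF half-site beside a near AP-1 match.
Trmt12, chr15:58703986-58704086, plus strand: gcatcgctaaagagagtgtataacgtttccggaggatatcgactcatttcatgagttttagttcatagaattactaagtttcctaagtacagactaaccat

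Promoter peaks were a minority of every list. They were 118 of 886 IRF4 72 h peaks, or 13.3% (11.1 to 15.7), and 119 of 1562 IRF4 48 h peaks, or 7.62% (6.35 to 9.05). They were 90 of 1048 IRF8 72 h peaks, or 8.59% (6.96 to 10.5), and 21 of 226 IRF8 48 h peaks, or 9.29% (5.84 to 13.9). The IRF4 intervals of the 2 times did not overlap, and the IRF8 intervals did. In the lower part of each IRF4 list, split by rank of tags into equal parts, 17.2% (13.8 to 21.0) of 72 h peaks and 8.83% (6.94 to 11.0) of 48 h peaks were promoter peaks. In the upper part the shares were 9.48% (6.92 to 12.6) at 72 h and 6.4% (4.79 to 8.35) at 48 h, with overlapping intervals.

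Counted by gene, 294 of the 22342 protein-coding genes had a TSS within 1000 bp of a peak in any LPS list, or 1.32%. By list this was 0.582% of genes for IRF4 72 h, 0.586% for IRF4 48 h, 0.439% for IRF8 72 h and 0.094% for IRF8 48 h. These shares are the background for every gene list below. The 267 places had 265 different nearest genes, with a pair of places each at Arid1a and Coil, and 27 places lay within 1000 bp of more than 1 gene. The centre fell outside transcripts at 104 places, in an intron at 96, in an untranslated region at 54, in a coding exon at 9 and in another exon at 4.

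Most promoters were held by a single list. Of the 267 promoter places, 207 were in 1 list, 44 in 2, 9 in 3 and 7 in all 4. IRF4 alone held 170, or 63.7% (57.6 to 69.4), IRF8 alone held 68, or 25.5% (20.4 to 31.1), and both factors held 29, or 10.9% (7.4 to 15.2). Away from promoters these shares were 57.0% (55.1 to 59.0), 29.4% (27.6 to 31.2) and 13.6% (12.2 to 15). The intervals of all 3 shares overlapped between promoters and other places. Sharing in time differed for IRF4: 33.1% (24.7 to 42.3) of the IRF4 72 h promoter peaks were also in the IRF4 48 h list, against 64.1% (60.6 to 67.5) of its other peaks. In the opposite direction, 31.9% (23.7 to 41.1) of the IRF4 48 h promoter peaks and 34.1% (31.7 to 36.6) of its other peaks were in the shorter IRF4 72 h list.

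**Figure D1:**
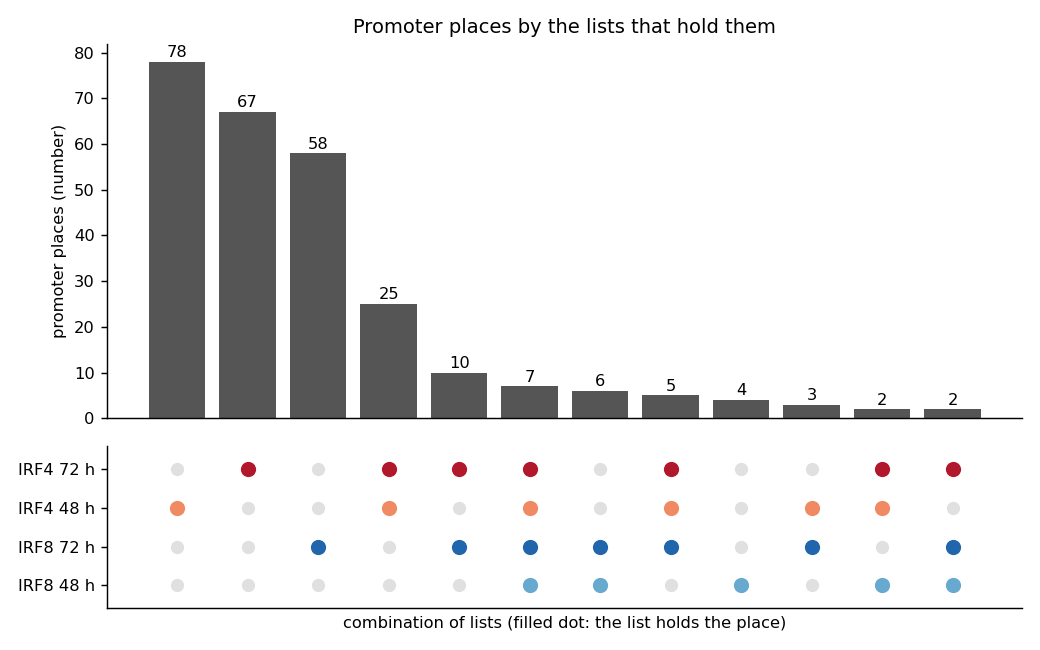
Number of promoter places for each combination of the 4 LPS lists (bars), with filled dots marking the lists that hold the places. Places of 1 list lead with 78 (IRF4 48 h), 67 (IRF4 72 h) and 58 (IRF8 72 h), while the commonest combinations of 2 lists are both IRF4 lists with 25 places and the 72 h lists of both factors with 10.

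Of the 7 places in all 4 lists, 5 lay in multi-copy sequence at predicted genes: Gm10800, Gm10801, Gm10722, Gm10720 and Gm10106. These had high normalised tag counts, tags scaled by the authors to 10000000 a library. Gm10800 had 4684.0 and 4651.2 in the IRF4 72 h and 48 h lists, and 4710.6 and 3631.3 in the IRF8 72 h and 48 h lists. Gm10106, the fourth of these places by tags in the IRF4 lists, had 318.6, 297.3, 319.7 and 240.0 in the same order. Their levels were alike in the 4 libraries within 1.5 fold except Gm10720, which had 336.0 for IRF8 72 h and 203.4 for IRF8 48 h. Multi-copy promoter peaks held 18.7%, 10.0%, 17.0% and 39.2% of the tags in listed peaks, in the order IRF4 at 72 h and 48 h, IRF8 at 72 h and 48 h. In all, 14 places were multi-copy and 253 single-copy, and the tag values below are of single-copy places unless stated.

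Tcfeb and Aff3 were the single-copy promoters in all 4 lists. Tcfeb encodes TFEB, a transcription factor that drives genes of lysosomes and autophagy. Its place, chr17:47905531-47906063, lay 406 bp upstream of the nearest TSS in an intron, over an AP-1 match. It had 42.5 normalised tags in the IRF4 72 h list, 67.7 in the IRF4 48 h list, 97.9 for IRF8 72 h and 64.0 for IRF8 48 h. It was thus highest for IRF8 at 72 h and lowest for IRF4 at 72 h. Aff3 encodes a nuclear protein of the AFF family, linked to transcription elongation and known from lymphoid tissue. Its place, 64 bp upstream of the TSS, held no EICE, ISRE or AP-1, and had 53.1 and 35.3 normalised tags in the IRF4 72 h and 48 h lists and 26.1 and 20.6 in the IRF8 72 h and 48 h lists.

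Apart from the multi-copy places the levels were low. The median promoter peak had 26.6 normalised tags for IRF4 72 h (highest 66.4), 32.4 for IRF4 48 h (highest 79.5), 32.6 for IRF8 72 h (highest 143.5) and 29.7 for IRF8 48 h (highest 64.0). Other single-copy peaks had medians of 31.9, 38.3, 32.6 and 27.4 in the same order. Promoter peaks were thus lower than other peaks in both IRF4 lists and level with them in the IRF8 72 h list. A median of 11 tags stood behind the IRF4 48 h promoter peaks, so single values carry wide intervals: the 53.1 of Aff3 in the IRF4 72 h list rests on 20 tags, with an interval of 32.4 to 82.0.

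The highest promoters of the IRF4 lists were of mixed function. At 72 h Hjurp, the chaperone that loads the centromeric histone CENP-A, led with 66.4 normalised tags, 12 bp upstream of its TSS, and was in no other list. It was followed by Aff3, by Cltc, the clathrin heavy chain, by Cnpy3, a chaperone that Toll-like receptors need to leave the endoplasmic reticulum, and by Alg9, a mannosyltransferase of N-glycosylation, each at 53.1. At 48 h the first was Zfp91, a zinc finger protein, with 79.5, followed by Cnpy3 with 76.5. Trmt12, an enzyme of transfer RNA modification, and Wdfy4, a protein needed for cross-presentation in dendritic cells, had 70.7 each, and Tcfeb 67.7. The Cnpy3 place lay in an intron 559 bp inside the gene, over an EICE, and no IRF8 list held it.

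In the IRF8 72 h list Erap1 led with 143.5 normalised tags, and the IRF8 48 h list gave it 64.0, level with Tcfeb as its highest single-copy promoter. Erap1, the aminopeptidase that trims peptides for MHC class I, carried its ISRE 19 bp upstream of the TSS, and no IRF4 list held it. Tcfeb came second at 72 h with 97.9. It was followed by Ppfibp2, which encodes a liprin, with 78.3 and no matched element, by Wdfy4 with 62.0, and by Usf1, a transcription factor that binds E-boxes, with 58.7 over a joined ISRE and EICE.

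**Figure D2:**
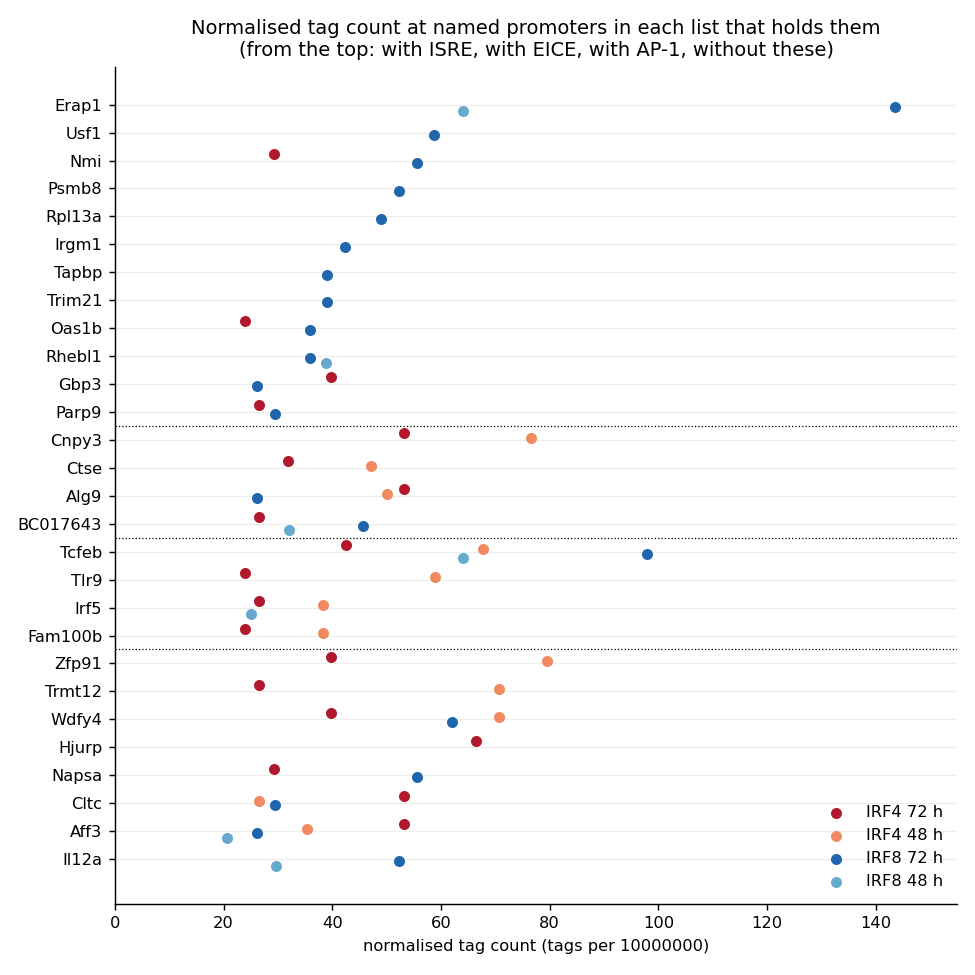
Normalised tag count (tags per 10000000, x axis) at 28 single-copy promoters, with 1 point for each list that holds the place; a missing point means no listed peak. Promoters with an ISRE (top block) have mostly IRF8 72 h points, led by Erap1 at 143.5, while the 8 drawn in the EICE and AP-1 blocks each have an IRF4 point. The promoters drawn were chosen, some after their values were seen. Over all places IRF8 alone held 14 of 46 with an EICE and 6 of 45 with an AP-1, and none of these is drawn in those blocks.

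The ISRE was the element of the IRF8 72 h promoter peaks. It lay under 32 of 90 of them, or 35.6% (25.7 to 46.3), against 9.93% (8.11 to 12) of the other peaks of that list. The flanks 1000 bp away from the promoter peaks held it in 3.35%. In the other lists it lay under 11 of 118 promoter peaks for IRF4 72 h, or 9.32% (4.75 to 16.1), 4 of 119 for IRF4 48 h, or 3.36% (0.923 to 8.38), and 2 of 21 for IRF8 48 h, or 9.52% (1.17 to 30.4). The IRF8 72 h share stood apart from those of both IRF4 lists, while the 21 promoter peaks of IRF8 48 h were too few to tell. A run of 3 half-sites, the first GGAA or GAAA and the other 2 GAAA, each 2 bases apart, lay under 13 of the 90 IRF8 72 h promoter peaks, or 14.4% (7.92 to 23.4). The same run lay under 2.4% (1.53 to 3.58) of its other peaks and 0.185% of all TSS windows. The matches sat at the summit: 24 of the 32 lay within 25 bp of the peak centre, and 18 lay between 150 bp upstream and 50 bp downstream of the TSS.

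**Figure D3:**
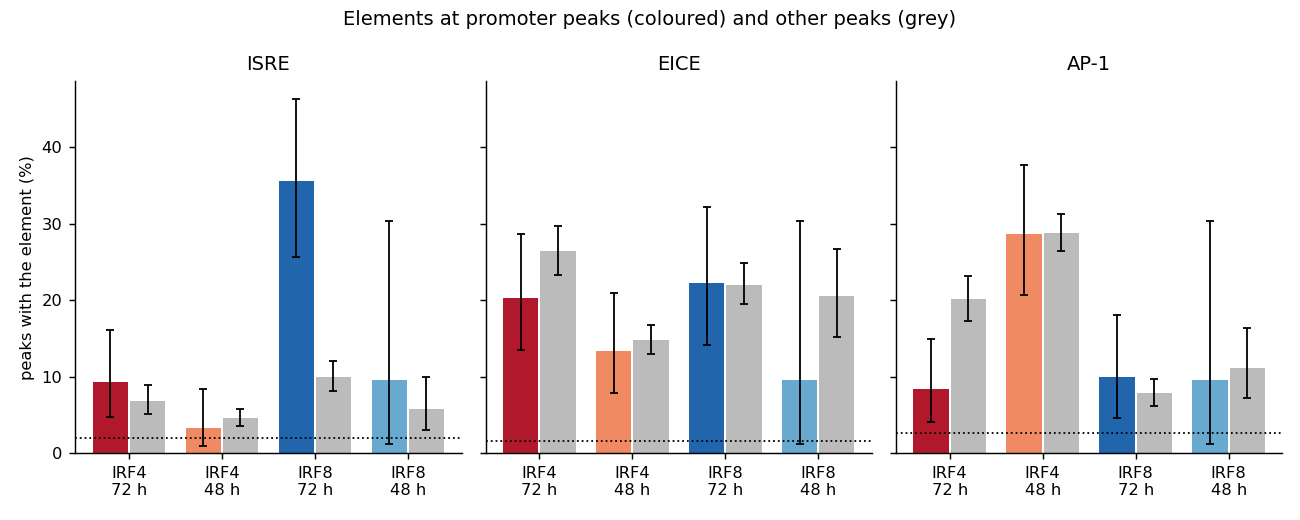
Share of peaks (%) with an ISRE, EICE or AP-1 match within 100 bp of the centre, at promoter peaks (coloured) and other peaks (grey) of each list; bars are shares, error bars exact 95% intervals, and dotted lines the share of all TSS windows. The ISRE bar of the IRF8 72 h promoter peaks reaches 35.6% against 9.93% at its other peaks, and AP-1 at IRF4 promoter peaks is 8.47% at 72 h and 28.6% at 48 h.

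Genes of MHC class I presentation and of the interferon response were among these promoters. On 3 lists of such genes (class I processing, interferon-induced GTPases and antiviral genes), 18 of 73 genes, or 24.7% (15.3 to 36.1), had an IRF8 72 h promoter peak, against a background of 0.439%. For IRF4 72 h it was 7 of 73, and for IRF4 48 h and IRF8 48 h it was 2 of 73 each. Of the 32 IRF8 72 h promoter places with an ISRE, 12 had a gene on these lists, while 3 of the 41 places with no EICE, ISRE or AP-1 had one. These lists were written with earlier results of these data known, so the counts are descriptions.

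In class I presentation, 7 of 20 genes had a promoter peak in an LPS list. Besides Erap1, Psmb8, the immunoproteasome subunit that shapes the peptides cut for class I, had 52.2 normalised tags in the IRF8 72 h list alone. Tapbp, tapasin, which holds empty class I molecules at the peptide transporter, had 39.1 there, and its ISRE lay 167 bp downstream of the TSS in an annotated untranslated region. A place shared by Gm6034 and the class I-like gene H2-T22 also had 39.1. Psmb8, Tapbp and this shared place were in the IRF8 72 h list alone among the LPS lists, and all 3 overlapped the GC list. The class I heavy chain genes themselves were less uniform. H2-Q4 had 26.6 normalised tags in the IRF4 72 h list, 39.1 for IRF8 72 h and 36.6 for IRF8 48 h, with no matched element. H2-Q7, whose sequence is multi-copy so that tags may belong to a relative, had 38.3 for IRF4 48 h and 91.3 for IRF8 72 h. H2-K1 was in the IRF4 72 h list alone with 26.6.

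Of the 16 interferon-induced GTPases, which attack vacuoles that hold microbes, 6 had a promoter peak. Irgm1 and Irgm2 had 42.4 and 32.6 normalised tags for IRF8 72 h and no peak in another LPS list. The guanylate-binding genes were divided between the factors. Gbp7 had 29.2 for IRF4 72 h and 35.9 for IRF8 72 h, Gbp3 had 39.8 and 26.1 in the same lists, Gbp2 had 29.4 in the IRF4 48 h list alone, and the multi-copy Gbp4 had 29.4 in the IRF8 72 h list alone. Gbp2, Gbp3 and Gbp7 held an ISRE, as did Irgm1 and Irgm2, and no EICE, ISRE or AP-1 was matched at Gbp4.

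Of 37 antiviral genes, 7 had a promoter peak, all 7 in the IRF8 72 h list. Trim21, a cytosolic receptor for antibody-coated virus, had 39.1 normalised tags, and Trim25, the ubiquitin ligase that acts on the RNA sensor RIG-I, had 32.6 over an EICE. The place next to Ifit1 had 35.9, and Isg20, an RNA exonuclease, had 26.1 over an EICE, with its peak centre 822 bp upstream. The other 2 places were shared with IRF4 at 72 h. Oas1b, of the family that makes 2′-5′ oligoadenylate on double-stranded RNA, had 23.9 for IRF4 72 h and 35.9 for IRF8 72 h. The start shared by Parp9 and Dtx3l, partners in ADP-ribosylation and ubiquitylation, had 26.6 and 29.4 in those lists.

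Further ISRE promoters of IRF8 72 h lay outside these lists. By the rule for named genes these were Usf1, Mov10, an RNA helicase with 35.9 normalised tags, and Ddx60, a helicase with 32.6. The rule also named Clic5, at a multi-copy place with 35.9, and the start of the ribosomal gene Rpl13a, which also lies within 1000 bp of the cytokine gene Flt3l and had 48.9. Mpeg1, a pore-forming protein of phagocytic and B cells, had 29.2 for IRF4 72 h and 29.4 for IRF8 72 h. Rhebl1, a small GTPase related to the mTORC1 activator RHEB, had 35.9 for IRF8 72 h and 38.8 for IRF8 48 h. Others, picked after their values were seen, were Nmi, an interferon-induced partner of STAT proteins, with 29.2 for IRF4 72 h and 55.5 for IRF8 72 h, and Socs1, the inhibitor of JAK-STAT signalling, with 35.9 for IRF8 72 h. Of the 38 promoter places with an ISRE in any list, 6 were held by IRF4 alone, 23 by IRF8 alone and 9 by both. The 6 of IRF4 alone were Gbp2, Fam100b, Ankrd54, Slc37a2, Etv6 and H2-T24, the last 2 outside the rule.

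EICE was about as common at promoter peaks as elsewhere. It lay under 20.3% (13.5 to 28.7) of IRF4 72 h promoter peaks and 26.4% (23.3 to 29.7) of that list's other peaks, and under 13.4% (7.88 to 20.9) and 14.8% (13.0 to 16.7) for IRF4 48 h. For IRF8 72 h the shares were 22.2% (14.1 to 32.2) and 22% (19.5 to 24.8), and for IRF8 48 h 9.52% (1.17 to 30.4) and 20.5% (15.2 to 26.7). The intervals overlapped within each list, and the 3 longer lists were above the 1.58% of all TSS windows. Of the 46 EICE places, IRF4 alone held 25, IRF8 alone 14 and both factors 7.

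The EICE promoters of IRF4 include Cnpy3, described above. Ctse, the endosomal protease cathepsin E, had 31.9 normalised tags for IRF4 72 h and 47.1 for IRF4 48 h, and was picked after its value was seen. Gpr18, a G protein-coupled receptor of lymphocytes, had 45.1 and 29.4 in those lists, 712 bp upstream of the TSS. Irf5, a relative of the studied factors that acts below Toll-like receptors, had 26.6 for IRF4 72 h, 38.3 for IRF4 48 h and 25.1 for IRF8 48 h. Alg9 had 53.1 for IRF4 72 h, 50 for IRF4 48 h and 26.1 for IRF8 72 h, at 989 bp upstream and so close to the limit of 1000 bp.

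For IRF8 the EICE promoters included Cd74, the invariant chain of MHC class II and a B cell marker, with 29.4 normalised tags in the IRF8 72 h list alone and an overlap with the GC list. Irf2, a member of the IRF family that can repress interferon responses, had 26.1 in that list alone. BC017643 had 26.6 for IRF4 72 h, 45.7 for IRF8 72 h and 32.0 for IRF8 48 h.

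AP-1 was an element of the IRF4 48 h promoters. It lay under 34 of 119 of them, or 28.6% (20.7 to 37.6), the same level as at that list's other peaks with 28.8% (26.4 to 31.2). At IRF4 72 h it lay under 10 of 118 promoter peaks, or 8.47% (4.14 to 15), against 20.1% (17.3 to 23.1) of the other peaks. Between the times the promoter shares did not overlap, and at 72 h the promoter peaks stood below the other peaks. Over the whole 500 bp of the peak the IRF4 promoter shares were 16.1% at 72 h and 35.3% at 48 h. Within 250 bp of the TSS lay 53.4% of the 72 h and 33.6% of the 48 h promoter peaks. There AP-1 lay under 4.76% (0.993 to 13.3) at 72 h and 17.5% (7.34 to 32.8) at 48 h. Beyond 250 bp it lay under 12.7% (5.27 to 24.5) and 34.2% (23.9 to 45.7) in the same order. The intervals of the times overlapped in both ranges. Whether distance accounts for the time difference was not tested. For IRF8 the promoter shares were 10.0% (4.68 to 18.1) at 72 h and 9.52% (1.17 to 30.4) at 48 h. Of the 45 AP-1 places IRF4 alone held 35, or 77.8% (62.9 to 88.8).

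The joined form AICE1 lay under 1 of 118 promoter peaks at IRF4 72 h and 6 of 119 at IRF4 48 h, and under 0 of 90 at IRF8 72 h, which allows up to 4.02%, and 0 of 21 at IRF8 48 h. Fam100b, in both IRF4 lists, had 23.9 normalised tags at 72 h and 38.3 at 48 h, and its AICE1 lay within 100 bp of the centre of the 48 h peak only. Notch1, the receptor that guides lymphocyte fate, had 26.5 in the IRF4 48 h list alone, with an AICE1 914 bp downstream of the TSS. Slc17a4, a solute carrier, had 32.4 in that list alone. Tlr9, the endosomal receptor for unmethylated DNA, held a plain AP-1 at its start, with 23.9 at IRF4 72 h and 58.9 at IRF4 48 h. AICE2 was found under no promoter peak in any list.

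Promoters without these elements made up most of the set. In all, 158 of 267 places, or 59.2%, held no EICE, ISRE or AP-1, among them 79 of the IRF4 72 h list and 70 of the IRF4 48 h list. The exact letters leave out near matches. Among promoter peaks without an element, a window 1 letter away from EICE or ISRE was found in 57.5% (45.9 to 68.5) for IRF4 72 h and 70.4% (58.4 to 80.7) for IRF4 48 h. It was found in 77.5% (61.5 to 89.2) for IRF8 72 h, against 30.1% of all TSS windows without an element. Other peaks without an element held it in 68.4% (63.6 to 73) for IRF4 72 h and 59.7% (56.2 to 63.1) for IRF4 48 h. For IRF8 72 h they held it in 60.2% (56.2 to 64.1). In each of these lists the intervals of promoter and other peaks overlapped.

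The element-free promoter peaks of IRF4 72 h were rich in CpG. A ratio of observed to expected CpG of at least 0.6 was found in 48 of 74 single-copy peaks, or 64.9%, against 26 of 65, or 40%, for IRF4 48 h and 8 of 32, or 25%, for IRF8 72 h. Single-copy promoter peaks with an element reached that ratio in 27%, 13.0% and 29.8% in the same order, and all TSS windows in 50.5%. Of the 63 IRF4 72 h promoter peaks within 250 bp of the TSS, 50 were element-free, and 68.3% of the 63 reached it. The TSS windows of that list's promoter peaks reached it in 60.2%. No interval was computed for these shares, and whether distance accounts for them was not tested. The element-free IRF4 72 h peaks lay near the start, at a median of 154 bp from the TSS, and had a median of 26.6 normalised tags. Their genes were mixed, from Cltc, Hjurp, Eif4g2, Rpl29 and Nup133 to H2-K1, H2-Q4, Tlr4 and Casp8, and H2-K1, Eif4g2, Rpl29 and Nup133 were picked after their values were seen. The ETS site common at such starts, CCGGAAGT, lay under 7 of 118 IRF4 72 h promoter peaks and 3.77% of all TSS windows.

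Napsa, an aspartic protease, and Il12a, a subunit of interleukin-12, were element-free promoters of IRF8. Napsa had 29.2 normalised tags for IRF4 72 h and 55.5 for IRF8 72 h, 72 bp upstream of the TSS. Il12a had 52.2 for IRF8 72 h and 29.7 for IRF8 48 h. Wdfy4, 12 bp downstream of its TSS, had 39.8 for IRF4 72 h, 70.7 for IRF4 48 h and 62.0 for IRF8 72 h, and Tlr4, the LPS receptor, had 26.6, 41.2 and 39.1 in the same order.

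Position around the TSS differed between lists and elements. The median distance of the peak centre from the TSS was 218 bp for IRF4 72 h, 354 bp for IRF4 48 h, 156 bp for IRF8 72 h and 246 bp for IRF8 48 h. ISRE peaks of IRF8 72 h lay at a median of 103 bp, with 23 of 32 within 250 bp, and the 11 ISRE peaks of IRF4 72 h at 94 bp. The 9 AP-1 peaks of IRF8 72 h lay at 93 bp. EICE peaks lay at 474 bp for IRF4 72 h, 598 bp for IRF4 48 h and 188 bp for IRF8 72 h, and AP-1 peaks of IRF4 48 h at 446 bp. Within 250 bp of the TSS AP-1 lay under 7 of 40 IRF4 48 h peaks, or 17.5% (7.34 to 32.8), and beyond it under 27 of 79, or 34.2% (23.9 to 45.7), with overlapping intervals. Upstream positions were the more common for every list, from 58.8% for IRF4 48 h to 66.7% for IRF8 48 h.

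**Figure D4:**
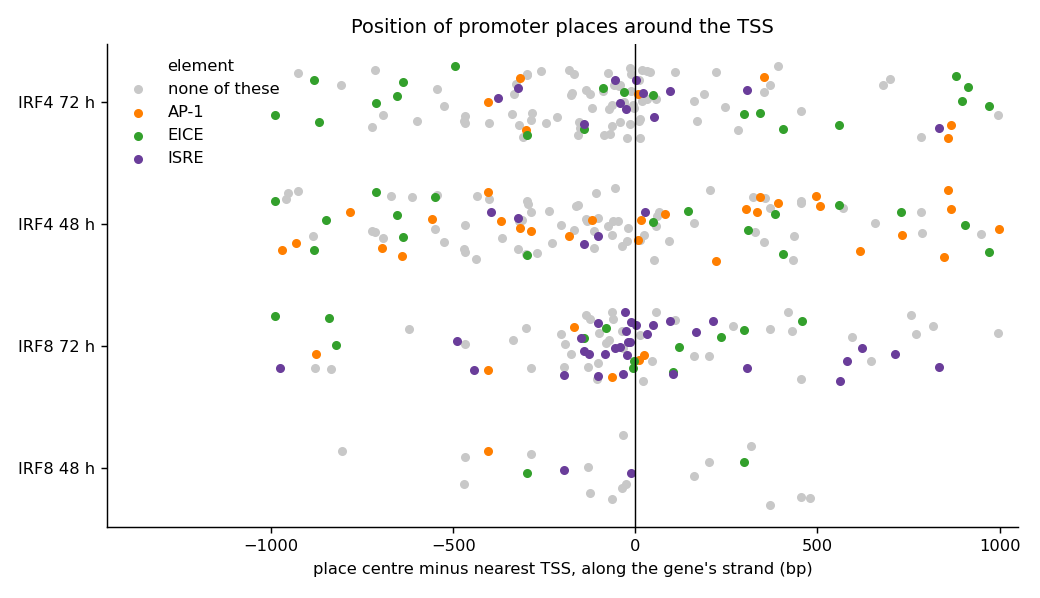
Position of promoter places relative to the nearest TSS (bp along the strand of the gene, upstream negative), with 1 point per place and list; height within a row is arbitrary, and a place with several elements takes the colour of the first of ISRE, EICE, AP-1. ISRE places of IRF8 72 h crowd around the start, 23 of 32 peaks within 250 bp, while AP-1 places of IRF4 48 h spread over the window.

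The GC list of IRF8 overlapped 65 of the 267 promoter places, or 24.3% (19.3 to 29.9), against 302 of 2433 other places, or 12.4% (11.1 to 13.8). For places of the IRF8 72 h list the share was 41.8% (31.5 to 52.6) at promoters against 17.1% (14.8 to 19.7) elsewhere. For IRF8 48 h it was 23.8% (8.22 to 47.2) against 20.0% (14.8 to 26.1). For IRF4 72 h it was 24.6% (17.1 to 33.4) at promoters against 18.9% (16.2 to 21.8) elsewhere. For IRF4 48 h it was 13.3% (7.82 to 20.7) against 12.3% (10.6 to 14.1). By list, the intervals of promoters and other places were apart for IRF8 72 h only. By element, 26 of the 38 ISRE places overlapped the GC list, or 68.4% (51.3 to 82.5), 16 of the 46 EICE places, 11 of the 45 AP-1 places, and 23 of the 158 without these, or 14.6% (9.46 to 21.0). The shared ISRE promoters included Erap1, Psmb8, Tapbp, Irgm1, Irgm2, Gbp7 and Oas1b, whereas Trim21 and Rhebl1 had no GC interval. The GC list was made with another caller, so cell type and caller cannot be told apart.

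Tag ratios could be formed only where both lists held a place, and a place was counted as higher or lower when its ratio passed 1.5 fold. For IRF4 at 72 h over 48 h, 39 promoter places were shared. Of these, 3 were higher, against 3.01% of all 531 shared places, and 10 were lower, against 36.5%. The median was -0.15 on the log2 scale, or -0.49 over the 33 single-copy places, and -0.39 over all shared places. Scaled by the other shared places, the promoter median turned to 0.24. That value includes multi-copy places. Single-copy places away from promoters had a median of -0.41, against the -0.49 of single-copy promoters. Intervals left out a ratio of 1 at Trmt12, with 0.376 (0.160 to 0.815), Tlr9, with 0.406 (0.163 to 0.933), and Zfp91, with 0.501 (0.248 to 0.976). These intervals held 0.763, the median ratio over all shared places, so they do not set the promoters apart from those places. The highest ratio was that of Cltc, with 2.00 (0.872 to 5.0), which included 1.

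For IRF8 at 72 h over 48 h, 15 promoter places were shared. Of these, 4 were higher, against 50.8% of all 132 shared places, and 0 were lower, against 0.758%. The median was 0.39 on the log2 scale at promoters and 0.60 over all shared places. With the other shared places as the scale it turned to -0.25. Erap1 was the only single-copy promoter whose interval left out 1, with a ratio of 2.24 (1.37 to 3.74). That interval held 1.52, the median ratio over all shared places, so it does not set Erap1 apart from those places. The 5 multi-copy places in all 4 lists also had intervals above 1, with Gm10800 at 0.38 and Gm10801 at 0.50 on the log2 scale, against 1.17 for Erap1.

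**Figure D5:**
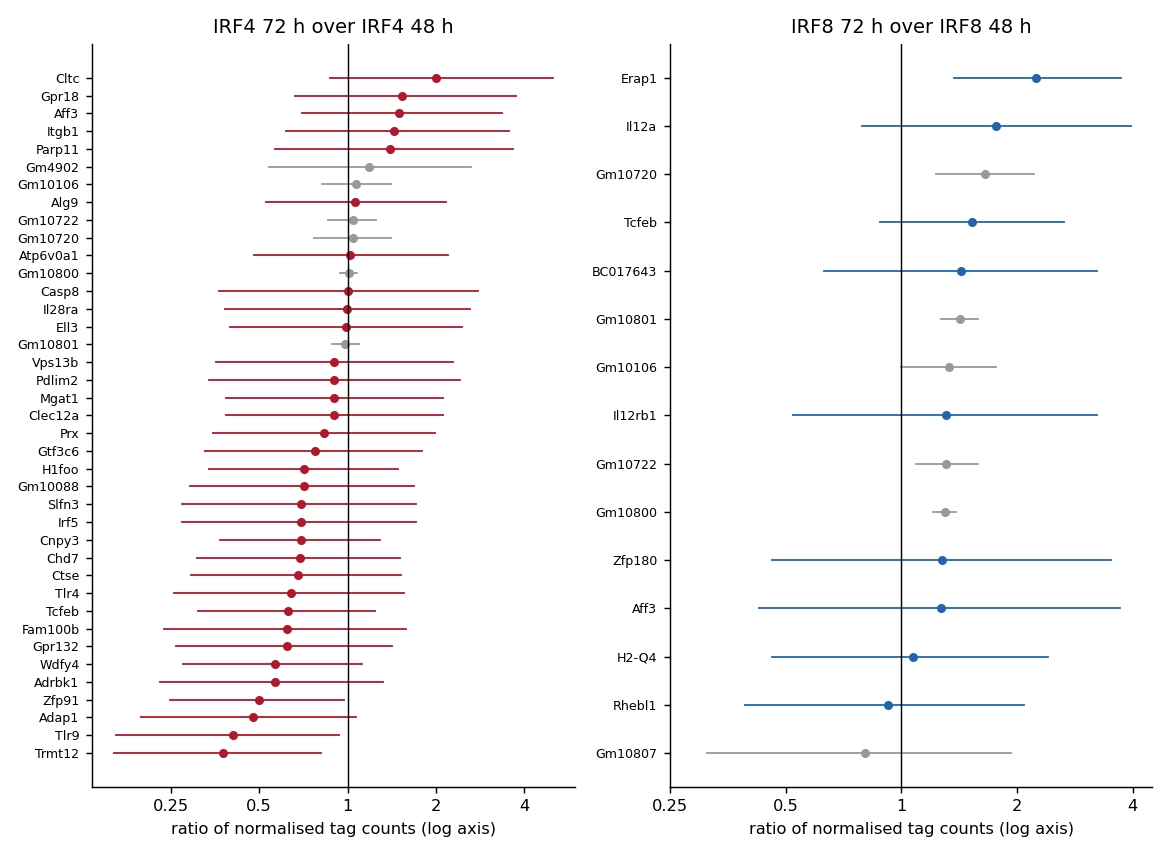
Ratio of normalised tag counts at 72 h over 48 h (log axis) for each promoter place in both lists of a factor, with exact 95% intervals from the counted tags; grey marks multi-copy places. For IRF4 Trmt12, Tlr9 and Zfp91 lie below 1 with their whole interval, and for IRF8 Erap1 lies above 1, together with 5 multi-copy places. The median ratio over all shared places was 0.763 for IRF4 and 1.52 for IRF8. The intervals of Trmt12, Tlr9, Zfp91 and Erap1 hold the median of their factor.

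Between the factors, IRF4 over IRF8, 24 promoter places were shared at 72 h. Of these, 4 were higher, against 12.9% of all 249 shared places, and 6 were lower, against 12%. The median was -0.14 on the log2 scale, -0.37 (-0.64 to 0.34) over the 18 single-copy places, and -0.03 over all shared places. Tcfeb alone had an interval that left out 1, with 0.434 (0.221 to 0.822). Aff3 and Alg9 had 2.03 each (0.859 to 5.34), and Nmi and Napsa 0.527 each (0.223 to 1.19). At 48 h, 9 promoter places were shared, of which 2 were higher, against 44.9% of all 118 shared places, and 0 lower, against 1.69%, with a median of 0.31 at promoters and 0.46 over all. Scaled by the other shared places, the promoter median was -0.18. The 2 were Irf5, with 1.52 (0.629 to 3.75), and Aff3, with 1.72 (0.664 to 4.62), and both intervals included 1. The intervals lay above 1 at the multi-copy Gm10800, with 1.28 (1.19 to 1.37), and Gm10801, with 1.34 (1.20 to 1.49).

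Lists of B cell and plasma cell genes were set beside the background of 1.32%. No promoter peak of an LPS list lay at 17 plasma cell genes or 16 germinal centre and activation genes. The same held for 14 AP-1 family genes and 32 Myc and cell cycle genes. At that background such short lists can hold none, so these counts say nothing about the genes. Of 23 B lineage transcription factor genes 1 had a promoter peak, or 4.35%, Foxp1 in the IRF4 48 h list. Of 28 genes of B cell receptor signalling and surface 3 had one, or 10.7%. These include Ptpn6 in the IRF4 48 h list and Inpp5d in the IRF8 72 h list. Among 17 MHC class II genes there were Cd74 and Rfx5, a transcription factor of class II promoters that had 44.2 normalised tags over an AP-1 in the IRF4 48 h list. Of the IRF family there were Irf2 and Irf5 of 9, of Toll-like receptor and NF-kappaB genes Tlr4 and Tlr9 of 40, and of apoptosis genes Casp8 and Mcl1 of 25. Of other gene families, 3 of 144 ribosomal protein genes and 9 of 429 zinc finger genes had one, near the background of 1.32%, and 0 of 1113 olfactory receptor genes. Of the cell type markers, 1 of 6 for B cells (Cd74), 0 of 4 for T cells and 0 of 4 for myeloid cells had a promoter peak; peaks give no RNA level, so the labelled cell type was not checked by this.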

How the data were processed

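Peaks of IRF4 and IRF8 ChIP-seq were analysed in 4 lists from LPS cultures and 1 from GC B cells, with 1 library in each of the 5 groups. For the LPS lists the authors ran HOMER findPeaks, per the file headers. The settings given here were read from the header of the IRF4 48 h list. It gives a peak size of 500 bp, a minimum spacing of 1000 bp and 1 tag counted per position. The false discovery rate was set at 0.001 (a threshold of 10 tags). It also requires 4 fold over the surrounding 10000 bp and a Poisson limit of 1e-04. Tags counted back from the deposited values went below 10, to 7 for IRF4 72 h, 8 for IRF4 48 h, 7 for IRF8 72 h and 9 for IRF8 48 h. BWA and Bowtie2 are named, with no version, in the submitters' processing notes. Per the file headers, the normalised tag count is a deposited signal in which each library counts as 10000000 tags. The deposited ratio of a peak is its fold over the local region, the deposited fraction is the share of tags placed as the caller expects around the centre, and the deposited score is the tag number after the limit per position. These, the deposited p-value per peak and the clonal fold only describe peaks. Dividing out the scaling gave whole tags within 0.05 for 100% of peaks. The GC list, called with MACS per the series' design text, gives positions alone and its depth is unknown.

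Peaks were placed on mm9 and assigned to TSS of protein-coding transcripts of GENCODE M1. Words of 24 bases within 100 bp of a centre were counted in the genome, and a place was multi-copy when the median word occurred more than 1 time. Shares have exact Clopper-Pearson intervals, tag counts exact Poisson intervals and tag ratios exact conditional binomial intervals, all at 95%, for counting error only. No p-value was computed, since no group had a second library. The search for elements and the ratio intervals were tested on simulated data. Python 3.11.15, numpy 2.4.6, pandas 2.3.3, scipy 1.17.1 and matplotlib 3.10.9 were used. Genes were named when their place was in all 4 LPS lists, was among the 5 highest single-copy places of a list, had an extreme tag ratio, held 2 or more kinds of IRF element, or was on one of 26 gene lists and in 2 or more LPS lists or over an IRF element; other names are marked in the text. Members, gene lists and elements were chosen with earlier results of these data known. Alternatives were the promoter window, the TSS set, the element window, single-copy places, a minimum tag count, the overlap rule and the scaling of ratios. A few genes and sequences are not reported here.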

Additional observations from a re-analysis of the deposited data

Results flagged for a closer look

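At promoter places shared in time, the median log2 tag ratio of 72 h over 48 h was -0.15 for IRF4 and 0.39 for IRF8, on opposite sides of 0. The difference was not tested, since each group had 1 library. All shared places of the same lists went the same ways, with medians of -0.39 for IRF4 and 0.60 for IRF8. Scaled by the other shared places instead, the promoter medians were 0.24 for IRF4 and -0.25 for IRF8. These scaled values include multi-copy places. Over single-copy places the IRF4 medians were -0.49 at promoters and -0.41 elsewhere, so there the promoters were not higher. The IRF8 medians were 0.39 and 0.72 in the same order. Both pairs had overlapping intervals.

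A pair of places held by all 4 lists had ratios on opposite sides of 0 for the 2 factors, and this was not tested. Tcfeb had a log2 ratio of -0.67 for IRF4 and 0.61 for IRF8, and both intervals of its ratios included 1 (0.310 to 1.24 for IRF4, 0.883 to 2.66 for IRF8). Gm10801, in multi-copy sequence, had -0.03 for IRF4 and 0.50 for IRF8.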

How the results depend on the processing

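The promoter shares, element shares, list counts and ratio medians, 25 results in all, were recomputed under the alternatives named above. Each alternative was applied to the results it bears on. Of the 162 recomputed values, 135 stayed the same within their interval or within 1.5 fold. With the 1 added choice, leaving out the IRF8 48 h list after seeing the data, 263 places remained, with 54 in 2 or more lists and 24.3% in the GC list. Scaling the ratios by the other shared places turned 3 medians: 0.24 for IRF4 72 h over 48 h, -0.25 for IRF8 72 h over 48 h and -0.18 for IRF4 over IRF8 at 48 h. These include multi-copy places. Over single-copy places IRF4 72 h over 48 h had -0.49 at promoters and -0.41 elsewhere, with overlapping intervals. With a promoter window of 2500 bp there were 439 places, 327 in 1 list and 112 in 2 or more. The promoter shares with that window were 20.5% (IRF4 72 h), 13.7% (IRF4 48 h) and 15.3% (IRF8 72 h), and with 500 bp they were 10.4%, 4.99% and 6.87%. With peaks at or above the pooled median of 32.6 normalised tags there were 119 places, 96 in 1 list and 23 in 2 or more, 30.3% overlapped the GC list, and the promoter shares were 9.04% (IRF4 72 h), 6.26% (IRF4 48 h) and 15.3% (IRF8 48 h). With the TSS of all transcripts the IRF4 48 h share was 9.15%. Single-copy places left 2 in all 4 lists. Within 50 bp of the centre AP-1 for IRF4 48 h was 18.5% and EICE 5.88%; over the whole 500 bp ISRE for IRF4 48 h was 9.24% and AP-1 for IRF4 72 h 16.1%. EICE for IRF4 48 h was 7.69% with a promoter window of 500 bp, and EICE for IRF8 48 h was 0% above the pooled median. The causes were not tested. The ISRE share of the IRF8 72 h promoter peaks ranged from 26.9% to 40.4% and stayed in its interval throughout.

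No paired analysis was possible because each group had 1 library and the labels give no replicate shared between groups. Leaving out a replicate was not possible either. Few tags per peak limit single places: a promoter peak of 10 tags has an interval wider than its value.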

Other observations

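The gene families in this paragraph had a promoter peak at 0% to 4.62% of their genes. A promoter peak was found at 3 of 65 translation factor genes (Eif1ad, Eif2b4 and Eif4g2), 1 of 50 proteasome genes (the immunoproteasome gene Psmb8), 4 of 115 genes of splicing and RNA binding, 1 of 181 genes of ubiquitin and SUMO (Ube2q2) and 1 of 100 genes of the respiratory chain (Ndufs5). It was found at 4 of 167 genes of vesicle transport and 5 of 353 solute carrier genes. No peak was found at the 77 genes of the mitochondrial ribosome, the 34 aminoacyl-tRNA synthetase genes or the 67 histone genes. Over all protein-coding genes the share was 1.32%. The highest of these family shares, 4.62% for translation factor genes and 3.48% for splicing and RNA-binding genes, rest on 3 and 4 genes. The 4 include Ddx60, given above among the ISRE promoters. No interval was computed for these shares, so no difference from 1.32% is read from them.

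Cytokine and homing receptor genes outside the lists, picked after their values were seen, appeared singly. Il2ra, a chain of the interleukin-2 receptor, had 38.3 normalised tags in the IRF4 48 h list alone. Cxcr5, the receptor that guides B cells into follicles, had 35.9 over an AP-1 in the IRF8 72 h list alone.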
